A study of Mus musculus with 12 samples.

Results

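The cytosolic ribosomal protein genes encode the proteins of the small (40S) and large (60S) subunit of the ribosome outside mitochondria. They were chosen by name and annotation alone: protein-coding genes whose mouse symbol has the form of Rpl or Rps followed by a number, or is Rplp0, Rplp1 or Rplp2, without the Rps6k kinases. This gave 82 of 55416 genes counted, 31 of the small subunit (Rps) and 51 of the large subunit (Rpl and Rplp). All 82 had enough counts to be tested. Of them, 1 lies on chromosome 6, 2 on chromosome 8, 7 on chromosome 11 and 72 elsewhere. A further 6 symbols of that form, Rps4l among them, were left out as pseudogenes, and the ribosomal proteins Rpsa and Fau, among others, fall outside the form of the name.

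A ribosome holds nearly every one of these proteins, so their genes are usually expressed together and at high levels. Their messenger RNAs carry a terminal oligopyrimidine (TOP) start, through which mTORC1 signalling sets how strongly they are translated. In stem cells and in growing cells ribosome production is high, and it commonly slows as cells leave the cell cycle or differentiate. A few ribosomal proteins have a paralogue that is used in particular tissues, such as Rpl39l and Rpl10l in the male germ line and Rpl3l in striated muscle.

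The counts come from total RNA, depleted of ribosomal RNA, of embryonic stem cells from mouse (line Bl/6J). There were 4 groups of 3 libraries: Oct4 C48S after retinoic acid (RA), wild type (WT) after RA, Oct4 C48S undifferentiated and WT undifferentiated. C48S is a cysteine-to-serine change in the pluripotency factor Oct4, and all C48S libraries come from 1 clone (number 46), derived per the labels from the parental WT line, so the change in Oct4 cannot be told apart from other properties of that clone. Undifferentiated cells were grown with the MEK inhibitor PD (1 µM), the GSK3 inhibitor CHIR (3 µM) and ascorbic acid. RA cells were kept for 2 days at 1.5 mg/L RA without the cytokine LIF. Whether the inhibitors stayed on during RA is not stated. For the RA libraries the treatment label runs over days 2 to 7, a different day for each, whereas titles and protocol both give day 2, which was used. Whether the 3 libraries of a group were cultured apart is not stated, and the spread behind each p-value may therefore be technical.

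Library totals lay between 8678088 and 13597098 counts. Libraries of a group differed by a chi-square of at most 2.26 per degree of freedom, except C48S undifferentiated replicate 3, which differed from replicates 1 and 2 by 9.88 and 9.66. That library had higher ribosomal protein levels: 75 of the 82 genes were above the mean of replicates 1 and 2, with a median difference of 0.23 on the log2 scale, against a median of 0.00 over all genes tested. The value without it is given below for some genes only, and other named values moved too. Without it C48S over WT before RA was -0.85 for Rpl22l1, -0.79 for Rpl38, -0.74 for Rpl27 and -0.69 for Rpl23. It was then -2.17 for Rpl10l and 0.24 for Rps2. The rises with RA in C48S were then 1.03 for Rpl10l and 1.69 for Rpl3l (all log2). Levels of the ribosomal protein genes are CPM, counts scaled to a common library size by TMM. The marker sums that follow are CPM scaled by the total count of each library only, without TMM. The summed level of 8 embryonic stem cell markers was 678 to 708 CPM in C48S RA and 371 to 387 CPM in WT RA, and 3937 to 4250 CPM in C48S undifferentiated and 3790 to 3896 CPM in WT undifferentiated libraries. That of 6 RA response genes was 1397 to 1423 CPM in C48S RA and 1177 to 1210 CPM in WT RA, and at most 13.6 CPM before RA. The 8 fibroblast or feeder markers, none of them at 0, summed to 386 to 388 CPM in C48S and 253 to 257 CPM in WT after RA, and to 420 to 560 CPM in C48S and 291 to 323 CPM in WT before it. These markers did not move together between the lines. After RA mean Pdgfrb was 243 CPM in C48S and 94.8 CPM in WT, and Col1a1, Col3a1 and Lum were also higher in C48S. Col1a2, Dcn, Thy1 and Postn were then lower in C48S. Before RA Dcn, Lum and Thy1 were lower in C48S and the rest higher, most of all Col1a1 (250 CPM in C48S and 126 CPM in WT). The part of these markers in the differences below was not tested. Erythroid markers summed to at most 0.785 CPM and leukocyte markers to at most 1.53 CPM.

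The promoters are the sequence through which these genes are usually switched on together. RefSeq (GRCm38.p6) gave a promoter for 62 of the 82 genes and for 27025 genes in all, each from 250 bases before to 50 after the start. The letters CCGGAAG, the core bound by ETS factors, were found on either strand in 25 of the 62 (40.3%), against 9.93% of all promoters. GCCATNTT, a core of the YY1 motif, was on either strand of 13 (21%) against 6.96%. CTCTTT, a TOP-like run, was on the sense strand of 23 (37.1%) against 13.7%. It was counted at any position in the promoter, so the 23 are not a count of TOP starts. The median number of CG pairs was 21 in these promoters and 8 over all. The motifs were chosen after the promoters had been seen, and a match is a description of letters only. The windows of Rps6, Rpl26 and Rpl13 are shown, 60 bases before to 20 after the start, as examples of a gene with the TOP-like run, of a chromosome 11 gene with the ETS core and of a chromosome 8 gene with none of the 3 motifs in that window. Capitals mark the motif found.
Rps6 (chr4:86857348-86857427, minus strand): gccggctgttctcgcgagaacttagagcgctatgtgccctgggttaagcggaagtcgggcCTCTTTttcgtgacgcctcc
Rpl26 (chr11:68901506-68901585, plus strand): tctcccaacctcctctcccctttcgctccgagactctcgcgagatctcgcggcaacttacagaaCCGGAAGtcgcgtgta
Rpl13 (chr8:123102290-123102369, plus strand): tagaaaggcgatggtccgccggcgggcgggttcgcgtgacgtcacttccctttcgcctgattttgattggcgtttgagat
In Rps6 the TOP-like run begins at the annotated start itself, and in Rpl26 the ETS core lies just downstream of it.

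Together the 82 genes took a smaller share of all counts after RA than before it in both lines, and a smaller share in C48S than in WT after RA. The share was 3.34, 3.36 and 3.31% in the C48S RA libraries and 4.11, 4.13 and 4.03% in the WT RA libraries. It was 4.25, 4.16 and, in replicate 3, 4.97% in the C48S undifferentiated libraries and 4.75, 4.78 and 4.69% in the WT undifferentiated libraries. After RA the 3 C48S libraries were below every WT library, whereas before RA the lines overlapped through C48S replicate 3. In bulk RNA a smaller share can come from fewer cells with high levels, from less RNA of these genes per cell or from more RNA of other genes. These cannot be told apart. The TMM factors were 0.88 to 0.93 in undifferentiated and 1.09 to 1.12 in RA libraries. The falls with RA in the scaled levels below are therefore larger than those of the share, and they depend on this scaling. The 292 ribosomal protein pseudogenes, which can take reads of their parent genes, held 0.0445 to 0.0457% of the counts in C48S RA and 0.0345 to 0.0367% in WT RA libraries, and 0.0654 to 0.0839% in C48S undifferentiated and 0.0522 to 0.0560% in WT undifferentiated libraries.

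**Figure D1:**
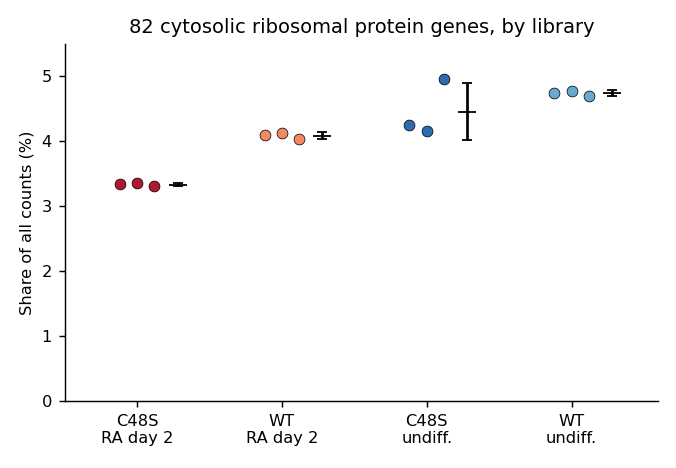
Share of all counts (%) taken by the 82 cytosolic ribosomal protein genes in each of the 12 libraries, with the mean and SD of each group of 3 beside the points. The C48S RA libraries lie lowest (3.31 to 3.36%), and C48S undifferentiated replicate 3 (4.97%) lies apart from the other libraries of its group.

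After RA nearly the whole family was lower in both lines, most genes within a narrow band. In C48S 79 of the 82 genes fell and 2 rose, where 34.6% and 39.0% of all 17940 genes tested fell and rose. In WT 78 fell and 1 rose, where 37.4% and 40.9% of all genes did. The median log2 fold change was -0.66 in C48S, beside 0.05 over all genes, and -0.59 in WT, beside 0.06 over all genes. The middle 50% of the members lay between -0.75 and -0.55 in C48S and between -0.70 and -0.48 in WT, a far narrower band than that of all genes (-0.50 to 0.96 in C48S and -0.65 to 1.14 in WT).

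Both subunits took part. With RA all 31 small-subunit genes fell in C48S and 29 in WT, with medians of -0.64 in C48S and -0.57 in WT. Of the 51 large-subunit genes 48 fell in C48S and 49 in WT, with medians of -0.68 in C48S and -0.62 in WT. Among the genes with the highest levels per kilobase was Rplp0, which with Rplp1 and Rplp2 forms the stalk that recruits elongation factors. Rplp0 was at 1482, 1504 and 1415 CPM in C48S RA and 2166, 2204 and 2280 CPM in C48S undifferentiated libraries, a log2 fold change of -0.59 ± 0.042 (SE; adjusted p = 9.65e-15). In WT it was at 1575, 1566 and 1511 CPM after RA and 2417, 2441 and 2342 CPM before it (-0.63 ± 0.042, adjusted p = 1.33e-15). No RA library overlapped an undifferentiated library of its line.

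Rpl13a, which besides its place in the ribosome is known for translational control in interferon-treated cells, had the largest fall in WT after the paralogues Rpl39l and Rpl7l1. It was at 136, 128 and 118 CPM in C48S RA and 233, 249 and 257 CPM in C48S undifferentiated libraries (-0.95 ± 0.053, adjusted p = 1.30e-17). In WT it was at 159, 149 and 155 CPM after RA and 324, 309 and 304 CPM before it (-1.02 ± 0.053, adjusted p = 8.74e-19). The groups were well apart in both lines. Rpl14, another large-subunit gene, also fell, with log2 fold changes of -0.86 ± 0.046 in C48S and -0.91 ± 0.045 in WT. Rpl37a also fell in C48S (-1.05 ± 0.22, adjusted p = 0.00223), with 247, 261 and 251 CPM in the RA libraries and 416, 403 and, in replicate 3, 756 CPM in the undifferentiated libraries. The fall of Rpl37a was -0.69 without C48S undifferentiated replicate 3, and that of Rpl13a was then -0.92.

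At the other end, 3 genes in WT and 1 in C48S did not pass the test with RA. In WT these were Rps27 (-0.11 ± 0.052, adjusted p = 0.0606), Rps28 (-0.08 ± 0.050, adjusted p = 0.147) and Rpl41, the shortest ribosomal protein (-0.23 ± 0.10, adjusted p = 0.0603). Rps28 was at 459, 450 and 435 CPM in WT RA and 460, 481 and 479 CPM in WT undifferentiated libraries, so the groups lay side by side without overlapping. In C48S it was at 384, 378 and 375 CPM after RA and 505, 445 and 522 CPM before it (-0.37 ± 0.050, adjusted p = 3.83e-08). Rpl41 and Rps27 passed the test in WT once C48S undifferentiated replicate 3 was left out of the shared fit. In C48S the gene that did not pass was Rpl39l, which had almost no counts there in either state.

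Between the lines, most of the family was lower in C48S in both states. Before RA 48 genes were lower and 5 higher in C48S, where 28.1% and 27.5% of all genes were. The median was -0.20, beside 0.00 over all genes. After RA 55 were lower and 5 higher, where 25.7% and 28.8% of all genes were, with a median of -0.28 beside 0.02. The sizes are small, and with a fold of 1.5 as the null 6 genes were lower and 0 higher in each state. The counts depended on single C48S undifferentiated libraries, and without replicate 2 there were 8 higher before RA. Without replicate 3 69 genes were lower before RA, the 48 included, and 73 after RA, the 55 included, while the 5 higher genes of each state stayed called. The medians were then -0.30 before and -0.29 after RA, and 27.9% and 27.8% of all genes were lower.

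The chromosome of a gene separated its difference between the lines. All 7 genes on chromosome 11 were lower in C48S in both states, with medians of -0.69 before and -0.73 after RA. The gene on chromosome 6 was higher in both states (0.40 and 0.33). The 72 on other chromosomes had medians of -0.19 and -0.27, with 41 lower and 2 higher before RA and 48 lower and 3 higher after it. The other protein-coding genes of the same chromosomes with at least 1 CPM shifted the same way: medians were 0.58 and 0.63 on chromosome 6 (658 genes), 0.52 and 0.58 on chromosome 8 (737 genes), -0.52 and -0.47 on chromosome 11 (1160 genes) and 0.01 and 0.05 elsewhere (11286 genes), before and after RA. The medians of the members on chromosome 11 and elsewhere, and the value of the one on chromosome 6, thus lay below those of the other genes of the same chromosomes. This order is a description and no test was made of it.

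The separation stood in every library. Relative to the members on other chromosomes, and to the WT undifferentiated mean, the chromosome 11 members of the C48S libraries lay between -0.51 and -0.46 on the log2 scale before RA and between -0.45 and -0.42 after it. In the WT libraries they lay between -0.018 and 0.0078 before RA and between 0.058 and 0.10 after it. The chromosome 6 gene lay between 0.59 and 0.63 in C48S undifferentiated, 0.59 and 0.64 in C48S RA, and -0.021 and 0.086 in all WT libraries. C48S undifferentiated replicate 3 did not stand apart in these differences, although it did in the levels.

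**Figure D2:**
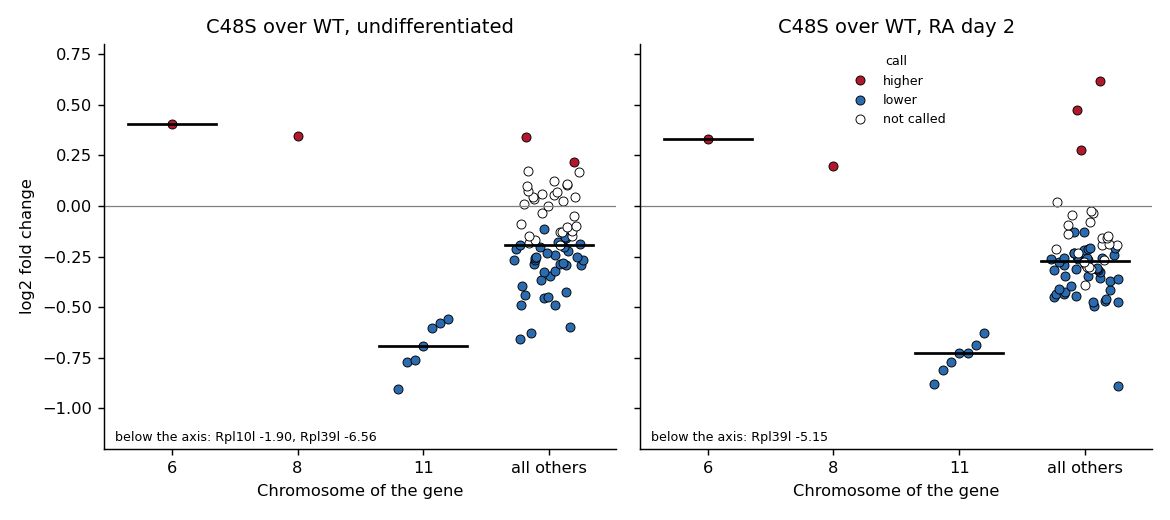
Log2 fold change of C48S over WT for the ribosomal protein genes reported here, by the chromosome of the gene, before RA (left) and after RA day 2 (right), with genes called higher or lower at an adjusted p under 0.05 filled. Bars are medians: the 7 genes on chromosome 11 lie at -0.69 and -0.73, and the 72 genes on other chromosomes at -0.19 and -0.27.

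On chromosome 11 the genes are spread from Rps27a, at 29495846 to 29498109 on GRCm39, to Rpl38, at 114559350 to 114563157. Rps27a encodes a ubiquitin fused to a small-subunit protein. It was at 280, 248 and 336 CPM in C48S undifferentiated and 485, 494 and 484 CPM in WT undifferentiated libraries (-0.76 ± 0.075, adjusted p = 9.21e-08). With RA it was at 175, 172 and 160 CPM in C48S and 297, 294 and 297 CPM in WT (-0.81 ± 0.077, adjusted p = 6.38e-08). Its C48S and WT libraries did not overlap in either state.

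Rpl26, whose protein is also known to bind the p53 messenger RNA, was at 528, 520 and 623 CPM in C48S undifferentiated and 960, 972 and 924 CPM in WT undifferentiated libraries (-0.77 ± 0.052, adjusted p = 7.19e-15). In the RA libraries it stood at 437, 448 and 438 CPM in C48S and 764, 762 and 728 CPM in WT (-0.77 ± 0.052, adjusted p = 1.11e-14). Its RA changes in the lines did not pass the test of their difference (0.0030 ± 0.073, adjusted p = 0.984). Rpl23a, near the mouth of the exit tunnel of the ribosome, had 553, 527 and 613 CPM in C48S undifferentiated and 829, 870 and 827 CPM in WT undifferentiated libraries (-0.58 ± 0.048). After RA it had 342, 337 and 330 CPM in C48S and 632, 619 and 606 CPM in WT (-0.88 ± 0.049). Of the 7 chromosome 11 members it alone passed the test of a difference between the RA changes (-0.30 ± 0.069, adjusted p = 4.92e-04).

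Rpl38, known in mice for its role in the translation of Hox messenger RNAs, was at 174, 168 and 245 CPM in C48S undifferentiated and 299, 301 and 291 CPM in WT undifferentiated libraries (-0.60 ± 0.12, adjusted p = 0.00197). After RA the level was 119, 122 and 121 CPM in C48S and 190, 204 and 188 CPM in WT (-0.69 ± 0.13, adjusted p = 0.00112). No library overlapped between the lines. Rpl19, a large-subunit protein of the bridges to the small subunit, had 631, 613 and 731 CPM in C48S undifferentiated and 1050, 1083 and 1053 CPM in WT undifferentiated libraries (-0.69 ± 0.050). After RA Rpl19 had 447, 450 and 445 CPM in C48S and 739, 759 and 720 CPM in WT (-0.73 ± 0.050).

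Rpl23, which is also known to bind Mdm2, had 341, 315 and 426 CPM in C48S undifferentiated and 508, 553 and 532 CPM in WT undifferentiated libraries (-0.56 ± 0.079). After RA Rpl23 had 234, 235 and 224 CPM in C48S and 379, 387 and 379 CPM in WT (-0.73 ± 0.080). Again no library overlapped between the lines. Rpl27 had 283, 287 and 192 CPM in C48S undifferentiated and 488, 482 and 460 CPM in WT undifferentiated libraries (-0.91 ± 0.13), and 178, 178 and 169 CPM in C48S RA and 264, 274 and 273 CPM in WT RA libraries (-0.63 ± 0.13). In C48S undifferentiated replicate 3 Rpl27 was thus low, where most members were high.

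The gene on chromosome 6 is Rpl32 (115782466 to 115785708 on GRCm39). It was at 891, 846 and 973 CPM in C48S undifferentiated and 688, 687 and 675 CPM in WT undifferentiated libraries (0.40 ± 0.048, adjusted p = 5.06e-09). At RA day 2 it measured 570, 583 and 578 CPM in C48S and 481, 449 and 446 CPM in WT (0.33 ± 0.048, adjusted p = 3.51e-07). On chromosome 8, Rpl13 was at 1067, 1043 and 1205 CPM in C48S undifferentiated and 898, 860 and 848 CPM in WT undifferentiated libraries (0.35 ± 0.047, adjusted p = 1.07e-07). Both genes were higher in every C48S library, and Rpl13 remained so after RA, with 708, 717 and 699 CPM in C48S and 625, 614 and 612 CPM in WT (0.20 ± 0.048, adjusted p = 6.23e-04).

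Away from these chromosomes, Rps2 was the gene with high levels that went the other way. Rps2, a small-subunit protein at the entry of the messenger RNA channel, was at 2080, 2081 and 2531 CPM in C48S undifferentiated and 1831, 1752 and 1704 CPM in WT undifferentiated libraries (0.34 ± 0.056, adjusted p = 8.55e-06). With RA it was at 1568, 1568 and 1547 CPM in C48S and 1301, 1335 and 1235 CPM in WT (0.27 ± 0.056, adjusted p = 1.58e-04). It was higher in every C48S library of each state. Before RA it was the only one of the 72 genes as high as the lowest of the chromosome 6 and 8 genes. After RA 3 of the 72 were called higher in C48S, which were Rps2, Rpl7l1 and Rpl3l.

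Before RA 6 of the 72 genes elsewhere were as low as the chromosome 11 members, among them Rpl24, Rps23 and the paralogues Rpl39l, Rpl10l and Rpl22l1. After RA only Rpl39l and Rpl22l1 were. Rps23, at the decoding centre of the small subunit, was at 415, 406 and 468 CPM in C48S undifferentiated and 661, 658 and 633 CPM in WT undifferentiated libraries (-0.60 ± 0.048, adjusted p = 6.48e-13). In the RA libraries it stood at 293, 285 and 297 CPM in C48S and 409, 418 and 405 CPM in WT (-0.49 ± 0.049, adjusted p = 1.22e-10). The lines did not overlap. Rpl24 differed by -0.63 before and -0.47 after RA.

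The paralogue Rpl39l had by far the largest difference between the lines. Rpl39l (ENSMUSG00000039209, chromosome 16, 9988090 to 9992775 on GRCm39) is the autosomal copy of the X-linked Rpl39, a short protein that lines the exit tunnel, and in mice it is needed for male fertility. Their coding sequences, both of 156 bases, show how close the copies are. They come from GENCODE M21 (GRCm38), and capitals mark the bases that differ.
Rpl39: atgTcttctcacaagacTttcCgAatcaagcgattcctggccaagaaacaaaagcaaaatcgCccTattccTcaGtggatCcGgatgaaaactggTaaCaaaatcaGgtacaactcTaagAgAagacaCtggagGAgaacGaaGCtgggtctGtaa
Rpl39l: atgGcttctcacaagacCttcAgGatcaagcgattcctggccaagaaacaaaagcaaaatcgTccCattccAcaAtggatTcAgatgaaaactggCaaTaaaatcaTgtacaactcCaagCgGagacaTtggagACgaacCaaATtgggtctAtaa
They differ at 23 positions (85.3% identical), and the longest run without a difference is 38 bases, so read pairs longer than that can be told apart within the coding sequence.

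Rpl39l was at 0.424, 0.426 and 0.207 CPM in C48S undifferentiated libraries, from 5, 4 and 2 counts, and at 34.1, 33.8 and 36.1 CPM in WT undifferentiated libraries (-6.56 ± 0.21, adjusted p = 3.00e-24). After RA the level was 0.154, 0.468 and 0.396 CPM in C48S, from 2, 5 and 5 counts, and at 11.8, 11.7 and 13.0 CPM in WT (-5.15 ± 0.24, adjusted p = 3.02e-19). It was near 0 in all 6 C48S libraries and well counted in all 6 WT libraries. With RA it fell in WT (-1.51 ± 0.11, adjusted p = 1.14e-14), the largest fall of any member in WT. Of the counts of the pair, Rpl39l took 0.32% ± 0.15 in C48S RA and 10.4% ± 0.35 in WT RA, and 0.23% ± 0.11 in C48S undifferentiated and 18.9% ± 1.09 in WT undifferentiated libraries (SD, n = 3 each). Rpl39 itself did not pass the test between the lines, with 147, 143 and 189 CPM in C48S undifferentiated and 155, 148 and 143 CPM in WT undifferentiated libraries (0.10 ± 0.078, adjusted p = 0.303), and 103 to 113 CPM in C48S RA and 100 to 108 CPM in WT RA libraries (0.02 ± 0.081, adjusted p = 0.859). The difference of Rpl39 before RA was -0.03 without C48S undifferentiated replicate 3 (adjusted p = 0.595).

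Rpl10l (ENSMUSG00000060499, chromosome 12, 66330153 to 66331175) is the retrocopy of the X-linked Rpl10 that replaces it during male meiosis in mice. It was at 5.60, 7.67 and 10.8 CPM in C48S undifferentiated and 27.6, 30.7 and 30.0 CPM in WT undifferentiated libraries (-1.90 ± 0.15, adjusted p = 2.20e-12). At RA day 2 it measured 15.3, 11.3 and 13.0 CPM in C48S and 16.3, 15.5 and 17.7 CPM in WT (-0.31 ± 0.14, adjusted p = 0.0602). The lines did not overlap in either state, but after RA they lay next to each other, and the difference of Rpl10l passed without C48S undifferentiated replicate 3 (adjusted p = 0.0103). With RA it rose in C48S (0.75 ± 0.16, adjusted p = 1.12e-04) and fell in WT (-0.84 ± 0.13, adjusted p = 9.05e-07), and these changes differed by 1.59 ± 0.20 (adjusted p = 1.97e-07; 1.86 without C48S undifferentiated replicate 3). The coding sequences of Rpl10 and Rpl10l are 84.8% identical, with 23 bases as the longest identical run. Rpl10 was slightly lower in C48S (-0.20 ± 0.050 before and -0.13 ± 0.050 after RA), and the call after RA was lost without WT RA replicate 2 (adjusted p = 0.105) or C48S RA replicate 3 (0.157).

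Rpl22l1 on chromosome 3, the paralogue of the RNA-binding Rpl22, was at 32.2, 30.8 and 45.6 CPM in C48S undifferentiated and 59.7, 59.0 and 52.3 CPM in WT undifferentiated libraries (-0.66 ± 0.10, adjusted p = 6.09e-06). After RA it had 19.9, 20.9 and 19.2 CPM in C48S and 33.8, 38.7 and 38.4 CPM in WT (-0.89 ± 0.11, adjusted p = 2.73e-07). The C48S libraries were lower throughout. Of the counts of the pair it took 15% ± 0.21 in C48S RA and 19.4% ± 0.87 in WT RA, and 16.4% ± 1.05 in C48S undifferentiated and 22.4% ± 1.39 in WT undifferentiated libraries (SD, n = 3 each).

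Rpl7l1 was higher in C48S in both states, and Rpl3l was called higher after RA only, near the threshold. Rpl7l1, related to Rpl7 and to a yeast factor of large-subunit assembly, was at 280, 296 and 291 CPM in C48S undifferentiated and 244, 251 and 250 CPM in WT undifferentiated libraries (0.22 ± 0.047, adjusted p = 1.54e-04). With RA it was at 158, 157 and 150 CPM in C48S and 116, 112 and 107 CPM in WT (0.47 ± 0.049, adjusted p = 3.86e-10). It was higher in all C48S libraries of each state, while Rpl7 was lower in C48S (-0.19 ± 0.060 before and -0.26 ± 0.060 after RA). The call of Rpl7 before RA was lost without C48S undifferentiated replicate 1 (adjusted p = 0.0643), and its difference was -0.30 without replicate 3. With RA Rpl7l1 fell in both lines, with log2 fold changes of -0.90 ± 0.047 in C48S and -1.15 ± 0.049 in WT, and these differed by 0.26 ± 0.068 (adjusted p = 0.00250). Rpl3l had few counts, from 7 to 49 a library. It was at 3.77, 3.93 and 3.72 CPM in C48S RA and 1.53, 0.746 and 2.07 CPM in C48S undifferentiated libraries (1.38 ± 0.29, adjusted p = 9.50e-05), and at 2.90, 2.57 and 1.95 CPM in WT RA and 0.734, 1.76 and 1.30 CPM in WT undifferentiated libraries (0.92 ± 0.33, adjusted p = 0.0114). It was the only member that rose in both lines. Before RA Rpl3l was not called between C48S and WT (0.17 ± 0.37, adjusted p = 0.723), and its difference was -0.14 without C48S undifferentiated replicate 3. Its difference between the lines after RA was just past the threshold (0.62 ± 0.27, adjusted p = 0.0486) and was lost under RLE scaling (adjusted p = 0.0689), DESeq2 (0.214) and other settings, and without any 1 of 7 libraries, which are WT undifferentiated replicates 2 and 3, WT RA replicates 2 and 3 and all 3 of C48S RA (adjusted p up to 0.207). Its rise in WT was lost without WT undifferentiated replicate 1 (0.65, adjusted p = 0.0843). Rps27l on chromosome 9, a p53 target and paralogue of Rps27, did not pass the test between the lines (-0.12 ± 0.054 before and -0.05 ± 0.057 after RA), but before RA Rps27l passed without C48S undifferentiated replicate 3 (adjusted p = 0.0433).

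**Figure D3:**
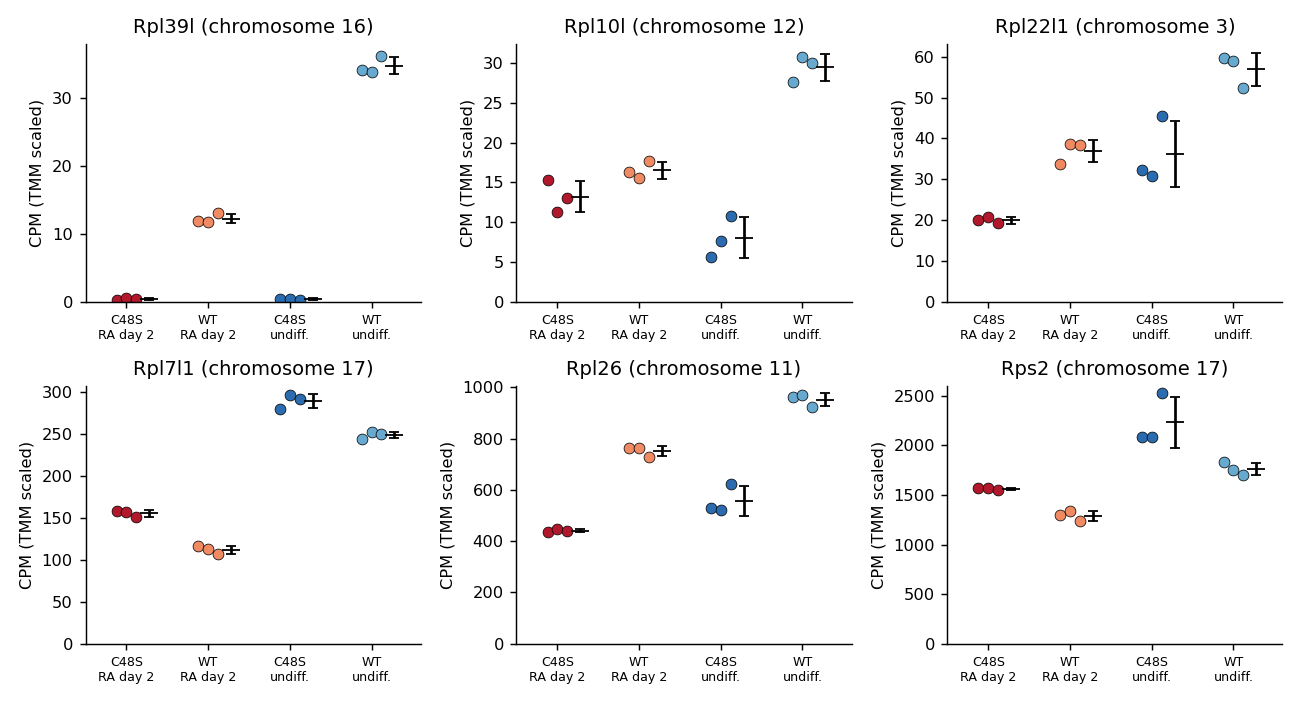
CPM (scaled by TMM) in each library for 6 ribosomal protein genes, with the mean and SD of each group of 3 beside the points, each panel on its own axis from 0. Rpl39l is near 0 in all C48S libraries and at 11.7 to 36.1 CPM in WT, Rpl26 is lower and Rps2 higher in the C48S libraries of each state.

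The RA changes of the lines differed in 14 of the 82 genes, 11 of them more negative in C48S and 3 more positive, where 17.2% and 22.2% of all genes were. The other 68 did not pass the test, and the median difference was -0.08, beside 0.02 over all genes. The largest negative difference was that of Rps26, which contacts the messenger RNA upstream of the start codon. It was at 549, 540 and 545 CPM in C48S RA and 802, 813 and 1011 CPM in C48S undifferentiated libraries (-0.68 ± 0.064), and at 676, 703 and 646 CPM in WT RA and 789, 841 and 818 CPM in WT undifferentiated libraries (-0.27 ± 0.064). The changes differed by -0.41 ± 0.090 (adjusted p = 8.47e-04). Without C48S undifferentiated replicate 3 the difference was -0.30.

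Rps27 fell in C48S (-0.42 ± 0.052) and did not pass the test in WT (-0.11 ± 0.052), with 195, 184 and 182 CPM in C48S RA and 256, 227 and 265 CPM in C48S undifferentiated libraries, against 239, 239 and 236 CPM in WT RA and 249, 267 and 252 CPM in WT undifferentiated libraries. Its RA changes differed by -0.31 ± 0.073 (adjusted p = 7.97e-04). Rps7, on chromosome 12, went the other way (0.21 ± 0.064, adjusted p = 0.00869). It was at 365, 367 and 345 CPM in C48S RA and 504, 494 and 475 CPM in C48S undifferentiated libraries, and at 417, 436 and 415 CPM in WT RA and 674, 677 and 649 CPM in WT undifferentiated libraries. Its fall was therefore the smaller in C48S, which started lower. Without C48S undifferentiated replicate 3 the counts were 19 more negative and 11 more positive, the 14 included, and the median difference was 0.03, where 18.4% and 23.6% of all genes passed. The sign of the median thus rested on that library. Without replicate 2 of that group the counts were 24 and 3, and without its replicate 1 they were 14 and 5.

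**Figure D4:**
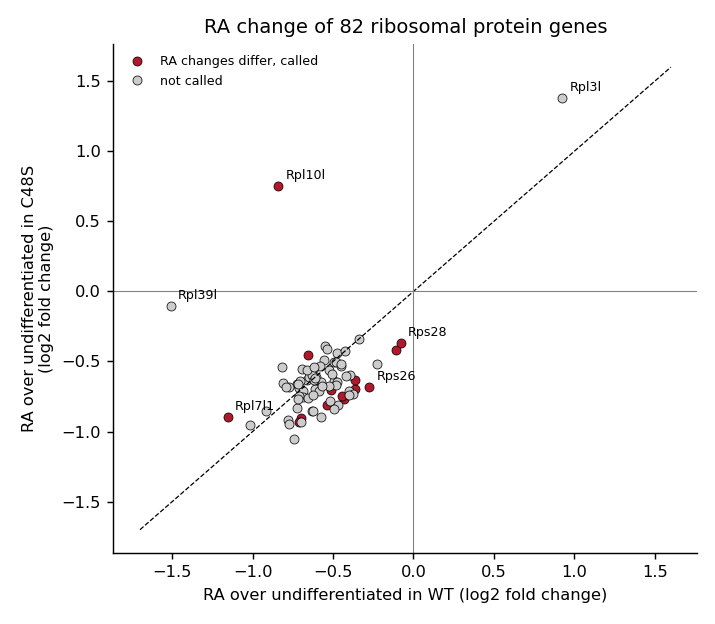
Log2 fold change with RA in C48S (vertical) against that in WT (horizontal) for the 82 genes, with equal changes on the dashed line and the 14 genes whose changes differed at an adjusted p under 0.05 in red. Nearly all genes lie between -1.1 and 0 in both lines, with Rpl10l (0.75 in C48S, -0.84 in WT) far from the line and Rpl3l above 0 in both.

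Other genes of ribosome production also fell with RA in most cases. Of 44 ribosome biogenesis genes 44 fell in C48S and 43 in WT, with medians of -1.16 in C48S and -1.34 in WT. An example is Nolc1, a nucleolar chaperone of small nucleolar particles (-1.50 ± 0.048 in C48S and -1.64 ± 0.049 in WT). Of 19 genes of RNA polymerase I and its factors 16 fell in C48S and 18 in WT (medians -0.66 and -0.89), among them Ubtf, which binds the ribosomal DNA promoter (-1.58 ± 0.059 in C48S and -2.29 ± 0.060 in WT). All 30 initiation genes fell in C48S and 28 in WT (medians -0.79 and -1.02), with the largest fall in Eif2s2, the beta subunit of eIF2 (-1.72 ± 0.049 in C48S and -2.79 ± 0.051 in WT). Of 21 other TOP messages and ribosomal proteins outside the form of the name 20 fell in each line (medians -0.72 in C48S and -0.69 in WT), and all 5 assembly chaperones of ribosomal proteins fell in each line (medians -1.05 in C48S and -0.74 in WT). These falls stand beside the fall of the embryonic stem cell markers given above, whose part in them was not tested.

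**Figure D5:**
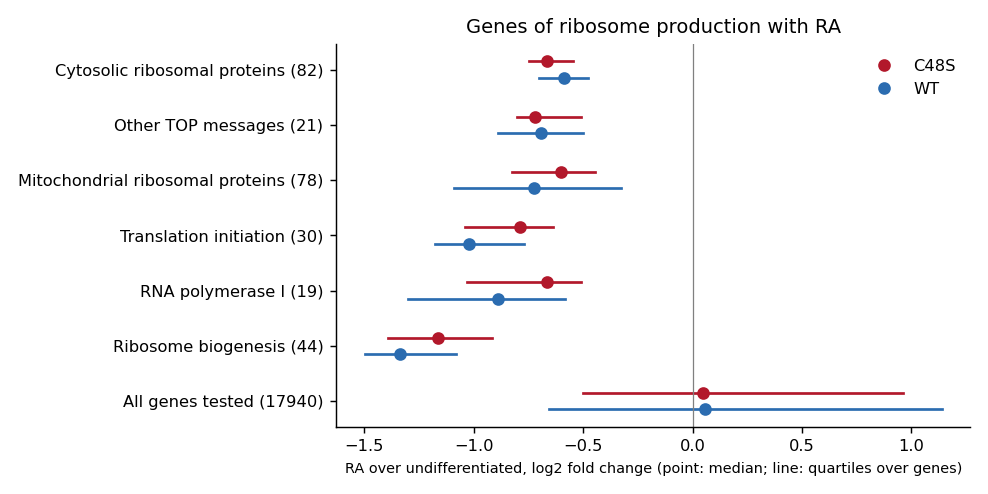
Log2 fold change with RA of the cytosolic ribosomal protein genes and of related gene lists, as the median (point) and quartiles over genes (line), in C48S and WT, with all 17940 genes tested at the bottom. The ribosomal protein genes have medians of -0.66 in C48S and -0.59 in WT, and the ribosome biogenesis genes of -1.16 and -1.34.

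Between the lines, 8 of the 44 biogenesis genes were higher and 14 lower in C48S before RA (median -0.01), and 19 were higher and 5 lower after it (median 0.12). Of the 19 polymerase I genes 5 were higher and 6 lower before RA (median 0.04), and 11 were higher and 1 lower after it (median 0.20). Of all genes 27.5% were higher and 28.1% lower before RA, and 28.8% and 25.7% after it. Among the genes of both lists with the smallest adjusted p after RA, Polr1a on chromosome 6 was higher by 0.78 ± 0.053, Taf1c on chromosome 8 by 0.92 ± 0.089 and Bms1 on chromosome 6 by 0.68 ± 0.053, while Pes1 and Nhp2 on chromosome 11 differed by -0.85 ± 0.047 and -1.03 ± 0.069. Dkc1, the pseudouridine synthase of H/ACA particles on the X chromosome, was higher by 0.77 ± 0.048. The other TOP messages had 14 of 21 lower and 2 higher in C48S after RA (median -0.23) and 10 lower and 2 higher before it (median -0.18). Among them the elongation factor Eef1a1 on chromosome 9 differed by -0.61 ± 0.046 before and -0.32 ± 0.046 after RA, and Rack1, a small-subunit protein encoded on chromosome 11, by -0.86 ± 0.049 and -0.67 ± 0.049. Of the 5 chaperones, 3 were higher before RA, Heatr3 on chromosome 8 (0.91 ± 0.067), Bccip (0.18 ± 0.073) and Tsr2 (0.38 ± 0.094), and of these Heatr3 (0.78 ± 0.071) and Bccip (0.45 ± 0.086) were also higher after RA. Initiation genes had 19 lower and 3 higher before RA (median -0.25) and 7 lower and 7 higher after it (median 0.03).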

How the data were processed

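RNA of 12 libraries was sequenced by the authors. The deposited values are raw counts per gene, made per the file headers with featureCounts 1.6.3 on read pairs with strand option 2 and Ensembl GRCm39 release 104 gene models. The submitters' processing notes name STAR 2.7.9a, DESeq2 and mm39. How reads with several matches were treated beyond this is not given in the sources used here, so genes with near copies or pseudogenes may lose counts.

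Symbols and biotypes came from GENCODE M21 by identifier (94.0% matched), coordinates from the files. Genes were filtered with edgeR 4.0.16 (minimum count 10), leaving 17940, scaled by TMM and tested in 1 quasi-likelihood fit of the 4 groups, with Benjamini-Hochberg adjustment over all genes and a threshold of 0.05. CPM of the ribosomal protein genes are TMM scaled, and those of the marker sums are scaled by total count only. Fold changes are log2 ± SE. The fit was also run on simulated counts, with the same spread for all genes and libraries. No simulated library stood apart, so that run says nothing about the effect of C48S undifferentiated replicate 3.

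Members, lists and tests were chosen with earlier results of these data known. Values per library are given for reported members on chromosomes 6, 8 and 11, paralogue pairs, the largest changes and the highest levels, and fold changes for examples of the genes with the smallest adjusted p in each other list. Alternatives were RLE scaling, TMM without chosen genes, DESeq2 1.42.0, other filters, a null fold of 1.5, the compared groups alone, a replicate block and each library left out. A few genes, and the chromosome 8 summary of the members, were not reported here.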

Additional observations from a re-analysis of the deposited data

Results flagged for a closer look

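In 14 ribosomal protein genes the RA change differed between the lines by the interaction test of edgeR. In C48S it was more negative for 13.4% of the members and more positive for 3.7%, against 17.2% and 22.2% of all genes. The difference is given as the change in C48S less the change in WT on the log2 scale. It was negative, with the more negative change in C48S, for genes that included Rps26 (-0.41), Rpl22 (-0.33), Rps27 (-0.31), Rpl23a (-0.30), Rps28 (-0.29), Rpl12 (-0.28), Rps13 (-0.22), Rpl29 (-0.20) and Rps24 (-0.19). It was positive for Rps7 (0.21), Rpl7l1 (0.26) and Rpl10l (1.59). Only Rpl10l changed in opposite directions in the lines, and all 14 kept their sign and their call without C48S undifferentiated replicate 3. The call of Rps13 was lost without WT undifferentiated replicate 3 (adjusted p = 0.0504), WT RA replicate 1 (0.0651) or C48S RA replicate 3 (0.0646), and that of Rps7 without WT undifferentiated replicate 2 (0.0511). Without C48S undifferentiated replicate 3 the difference was -0.30 for Rps26, -0.22 for Rpl22, -0.16 for Rpl12 and -0.14 for Rps13.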

How the results depend on the processing

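No class median and no called difference of a named gene changed direction under any alternative run. Without C48S undifferentiated replicate 3, differences before RA that were not called did, as for Rpl39 and Rpl3l, and the median difference between the RA changes over all 82 genes (-0.08) was 0.03. With a fold of 1.5 as the null, 0 genes were higher and 6 lower in C48S before RA, and 0 and 6 after it; with RA 1 rose and 33 fell in C48S, 0 and 24 in WT, and the RA changes differed in 1 (positive) and 0. With a minimum count of 50 (3 named results then had no test), 1 gene rose with RA in C48S and 0 in WT, and 17 RA changes were more negative in C48S; without a low-count filter 17 were too. Away from chromosomes 6, 8 and 11, the median of C48S over WT after RA (-0.27) was -0.32 under RLE, -0.29 with TMM without the ribosomal protein genes, -0.31 under DESeq2, -0.32 at a minimum count of 50 and -0.29 with the compared groups alone; the median with RA in WT (-0.61) was -0.59 under RLE, -0.58 under DESeq2 and -0.52 at a minimum count of 50.

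Leaving out 1 library in turn gave 5 to 8 genes higher and 45 to 69 lower in C48S before RA, 4 to 5 and 53 to 73 after it, with RA 0 to 1 rising and 77 to 80 falling in WT and 2 and 79 each time in C48S, and 2 to 11 positive and 10 to 24 negative differences between the RA changes; the 69, the 73 and the 11 came without C48S undifferentiated replicate 3, and the 8 and the 24 without replicate 2 of that group. The WT rise (Rpl3l) was lost without WT undifferentiated replicate 1. The lower level of Rplp0 in C48S before RA was lost with the compared groups alone (adjusted p = 0.0505) and without WT undifferentiated replicate 2 (0.0835) or C48S undifferentiated replicate 1 (0.0911) or 2 (0.0519). The members away from chromosomes 6, 8 and 11 had medians of -0.28 to -0.14 before RA, -0.30 to -0.26 after RA, -0.75 to -0.58 with RA in C48S and -0.62 to -0.58 in WT. Minus these, chromosome 6 had 0.58 to 0.63 before and 0.58 to 0.64 after RA and chromosome 11 -0.52 to -0.49 and -0.47 to -0.45. Of 119 called results of 33 named members, 118 or 119 stayed called under RLE, DESeq2 and both other TMM scalings. Replicate numbers did not pair the libraries (r of deviations from -0.053 to 0.029 over 18 same-number pairs, and from -0.033 to 0.062 over 36 others). With the replicate number as a block, 49 genes were lower before RA, 55 after it, 79 fell with RA in C48S and 78 in WT, and 1 call was lost (Rpl3l between the lines after RA, adjusted p = 0.0666 with the replicate block).

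Depth limits Rpl3l and, in C48S, Rpl39l, whose levels rest on at most 49 and 5 counts a library. Reads shared with pseudogenes were not recovered, and RA cannot be told apart from the other changes of medium made with it.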

Other observations

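Of the 78 mitochondrial ribosomal protein genes, counted apart, 72 fell with RA in C48S (median -0.60) and 65 in WT (median -0.73), while between the lines 25 were lower and 12 higher in C48S after RA and 28 lower and 14 higher before it. Chromosome 11 members such as Mrpl38 (-0.94 after RA) were among the lowest in C48S, and Mrpl51 on chromosome 6 (0.93) and Mrps31 on chromosome 8 (1.04) among the highest. Of 22 regulators linked to MYC and mTORC1, 12 fell and 8 rose with RA in C48S and 14 fell and 5 rose in WT. Larp1, on chromosome 11, whose protein binds TOP messages, was lower in C48S (-0.77 ± 0.042 before and -0.41 ± 0.043 after RA). Of 15 genes of the p53 response, 9 were higher and 4 lower in C48S before RA and 7 higher and 5 lower after it. For these counts, 34.6% of all genes fell and 39.0% rose with RA in C48S, and 37.4% and 40.9% in WT. Between the lines 28.1% of all genes were lower and 27.5% higher in C48S before RA, and 25.7% and 28.8% after it.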
